A study of Mus musculus with 16 samples.

Results

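The platelet by thrombin interaction was followed gene by gene in mouse macrophages, as the thrombin effect with platelets (thrombin-activated over resting platelets) minus the thrombin effect without platelets (thrombin over vehicle), each as a log2 fold change. A gene is additive on the log scale where the folds of both treatments multiply. A positive value, called more than additive, means that the level with thrombin-activated platelets lay above the product of the single effects, and a negative value, called less than additive, that it lay below. The product itself, here the additive expectation, is the level with resting platelets multiplied by the fold of thrombin over vehicle. All 16 libraries of the series entered the contrast, and 15610 of the 46320 genes in the table passed a filter on low counts and were tested.

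The cells were macrophages grown for 7 days from the marrow of C57BL6/J mice in medium conditioned by L929 cells, a source of the macrophage growth factor M-CSF. After starvation in low serum, wells of 400000 macrophages were treated for 4 h with thrombin-activated platelets, resting platelets, thrombin alone or PBS as the vehicle, with 4 libraries per group. The platelets came from blood of mice of the same strain and were added to the wells, so that their RNA can be in the libraries. The treatment protocol gives 0.01 U/mL of thrombin both for thrombin alone and for the activated platelets, the labels of the thrombin samples give 0.1 U/mL, and the labels of the activated platelet samples give no dose. The interaction is a comparison of the same stimulus with and without platelets only if the dose was the same. Whether the replicates of a group were separate cultures or animals is not in the labels. The p-values therefore rest on sample-to-sample spread that may be partly technical. Totals were 28 to 30.6 M counts with thrombin-activated platelets, 24.9 to 26.4 with resting platelets, 23.1 to 26.7 with thrombin and 22.6 to 27.7 with vehicle. Macrophage markers were abundant in every library, for example Csf1r, the M-CSF receptor, at 2290 to 3100 CPM (counts scaled to a common library size), and Lyz2, lysozyme, at 10300 to 14600 CPM. None of 7 such markers passed the interaction test. Libraries with the same replicate number deviated together from their group means. The fit reported first leaves this pairing out, and a fit with the replicate number as a block, given below, uses it.

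Thrombin is the last protease of the coagulation cascade. It cuts protease-activated receptors on platelets, which then release granule contents such as ADP, serotonin, growth factors and chemokines, expose new surface proteins and form prostanoids. Macrophages sense such products through G protein-coupled receptors, several of which act by raising or lowering cyclic AMP (cAMP), and through receptors for lipids, cytokines and microbial products.

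Most genes that passed the interaction test had moved with activated platelets against resting platelets, while thrombin alone had left few genes called. EdgeR's quasi-likelihood test with Benjamini-Hochberg adjustment called 1550 genes, 712 more than additive (4.56% of those tested) and 838 less than additive (5.37%), and 3915 genes had an unadjusted p under 0.05. The median interaction over all tested genes was -0.01. Most departures were small, with a median of 0.38 among genes called more than additive and -0.36 among those called less. At least a 2-fold departure was reached by 73 and 66 genes, and at least a 1.5-fold departure by 166 and 174. Thrombin alone called 45 genes against vehicle (0.288%), whereas activated platelets called 2472 genes against resting platelets (15.8%). Of the genes more than additive, 554 were higher with activated than with resting platelets and 0 lower. Of those less than additive, 706 were lower and 0 higher. The difference between activated and resting platelets is a term of the interaction, so these signs are largely fixed by how the genes were chosen and are given as a description.

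The size of these counts depended on how the libraries were treated. With the replicate number as a block, a term for the deviation that same-numbered libraries shared, the counts were 2049 more and 2486 less than additive of 15610 tested. They held all 712 and all 838 genes above. List counts with the block, given below, are to be read against these larger counts. With an offset for transcript GC content the counts were 378 and 521, of which 304 and 431 were among the 712 and 838. Genes called more than additive had a median transcript GC content of 55.2% and those called less 44.5%, against 49.7% over all tested genes. Leaving out the libraries of number 1 in all groups left 134 and 130 calls, those of number 3 left 359 and 396, and those of number 4 left 463 and 540. Leaving out the resting platelet library of number 1 left 473 genes more than additive. The fits with libraries left out carried no block, here and for the single genes below. With the block and all libraries, each of the 82 genes named by rule kept its call.

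**Figure D1:**
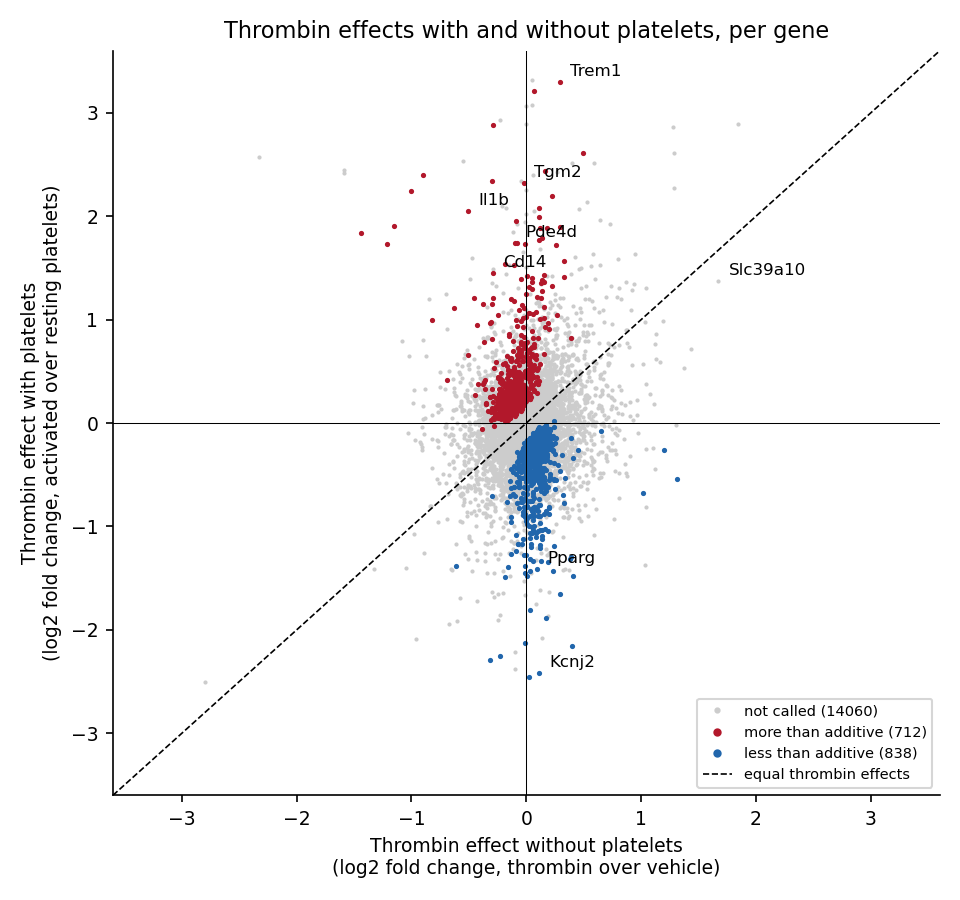
Each point is a tested gene. The horizontal axis is the thrombin effect without platelets (log2 fold change, thrombin over vehicle), the vertical axis the thrombin effect with platelets (log2 fold change, activated over resting platelets), and the dashed line marks equal effects. The 712 genes called more than additive (red) and the 838 called less (blue) spread along the vertical axis and stay near 0 on the horizontal one. Of the tested genes, 2 lie outside the axes.

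Cd14, the co-receptor that hands lipopolysaccharide to Toll-like receptors, had the smallest adjusted p of the genes described here, and its thrombin response turned round. Cd14 was measured at 714, 688, 703 and 698 CPM in activated platelet libraries 1 to 4, at 241, 258, 256 and 270 CPM with resting platelets, at 171, 162, 182 and 183 CPM with thrombin, and at 200, 200, 240 and 216 CPM with vehicle. No 2 of the 4 groups overlapped, and the order was activated platelets, resting platelets, vehicle and thrombin. The additive expectation was 209 CPM, and the level with activated platelets was 3.36-fold above it. The interaction was 1.75 ± 0.08 (log2 ± SE, adjusted p = 9.71e-09), with 1.79, 1.72, 1.86 and 1.61 within numbers 1 to 4. The thrombin effect was 1.45 ± 0.06 with platelets (adjusted p = 9.55e-10) and -0.29 ± 0.06 without them (adjusted p = 0.0447), and resting platelets alone were 0.26 above vehicle (adjusted p = 0.025). The departure also passed when effects were subtracted in CPM, without a log scale (limma), where the excess was 484 ± 22.4 CPM (SD over 4 numbers, adjusted p = 4.75e-10).

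Cd14 was tested among 20 genes of lipopolysaccharide and Toll-like receptor sensing. Of these, 2 were more than additive (10%, against 4.56% of all tested genes), 5 less (25%, against 5.37%) and 13 did not pass. The list median was -0.03 against -0.01 over all tested genes. Tlr2, the receptor for bacterial lipopeptides, averaged 320 ± 52.2 CPM with activated platelets, 151 ± 8.43 CPM with resting platelets, 105 ± 8.7 CPM with thrombin and 109 ± 14.9 CPM with vehicle, an interaction of 1.15 ± 0.15 (adjusted p = 0.000298). The members less than additive were Tlr13, Tlr1, Tlr7, Tlr4 and the adaptor Ticam1. Tlr13, a sensor of bacterial ribosomal RNA, averaged 278 ± 25.3 CPM with activated platelets, 447 ± 58.8 CPM with resting platelets, 476 ± 47.3 CPM with thrombin and 430 ± 31.7 CPM with vehicle. Its interaction was -0.83 ± 0.13 (adjusted p = 0.00134; 0.0609 without number 1). Tlr1, the partner of Tlr2, stood at -0.79 ± 0.13 (adjusted p = 0.00156). With the GC offset, 2 members were more than additive and 3 less, against 378 and 521 of all tested genes. With the block 3 and 8 passed, against 2049 and 2486 of all 15610 tested genes. In bulk RNA a lower level can come from fewer cells of a type or from less RNA per cell, which cannot be told apart here.

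**Figure D2:**
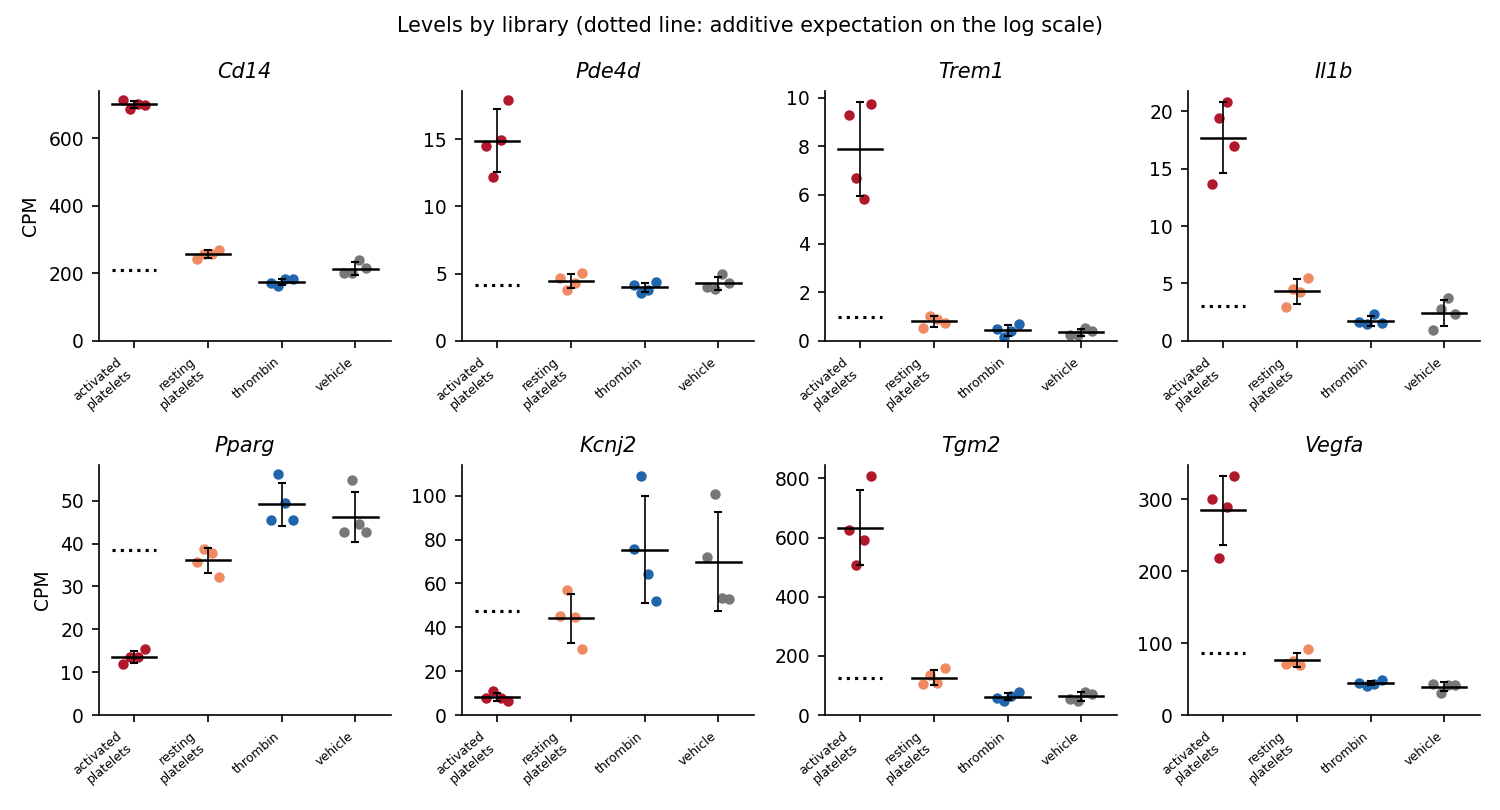
CPM per library for 8 genes, by group, with points for the 4 libraries of a group, a line for their mean and bars for the SD. The dotted line over the activated platelet group is the additive expectation on the log scale. In Cd14, Pde4d, Trem1, Il1b, Tgm2 and Vegfa every activated platelet library lies above that line, and in Pparg and Kcnj2 every one lies below it.

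Trem1 and Il1b, which carry inflammatory signals, had the largest positive values among the called genes that reached 5 CPM in a group, had 1 sign within all 4 numbers, and were neither platelet or erythroid markers nor predicted gene models. Trem1, a receptor that amplifies inflammatory signalling in myeloid cells (chromosome 17, 48539763 to 48553955, GRCm39), was at 9.3, 6.69, 5.82 and 9.74 CPM with activated platelets, 0.53, 1.03, 0.89 and 0.752 CPM with resting platelets, 0.481, 0.154, 0.396 and 0.679 CPM with thrombin, and 0.25, 0.227, 0.512 and 0.392 CPM with vehicle. Every activated platelet library was above every other library, and the additive expectation was 0.991 CPM. The interaction was 3.01 ± 0.52 (adjusted p = 0.00189). Il1b, the gene of the fever-inducing cytokine IL-1β (chromosome 2, 129206490 to 129213059), was at 13.7, 19.4, 20.8 and 17 CPM with activated platelets, 2.95, 4.49, 4.26 and 5.5 CPM with resting platelets, 1.6, 1.43, 2.33 and 1.51 CPM with thrombin, and 0.966, 2.77, 3.7 and 2.35 CPM with vehicle. Here too the activated platelet libraries stood clear of the rest, 5.89-fold above an expectation of 3.02 CPM, with an interaction of 2.56 ± 0.41 (adjusted p = 0.00126). Thrombin alone gave -0.51 ± 0.32 for Il1b (adjusted p = 0.587) and 0.29 ± 0.42 for Trem1 (adjusted p = 0.882).

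Of 20 inflammatory cytokine and NF-kB target genes tested, these genes and Ptgs2 were more than additive (15%) and Ccl3 and Ccl4 less (10%), with a median of 0.18. Over all tested genes the shares were 4.56% and 5.37%. Ptgs2, the inducible cyclooxygenase, averaged 148 ± 44.8 CPM with activated platelets, 49.9 ± 13.8 CPM with resting platelets, 19.7 ± 3.39 CPM with thrombin and 15.7 ± 1.14 CPM with vehicle, an interaction of 1.24 ± 0.31 (adjusted p = 0.0182). That call ended without number 1 (adjusted p = 0.188), 3 (0.0554) or 4 (0.0516). The chemokine gene Ccl4 averaged 2.98 ± 0.687 CPM with activated platelets, 7.83 ± 1.13 CPM with resting platelets, 10.8 ± 1.14 CPM with thrombin and 12.1 ± 1.23 CPM with vehicle, an interaction of -1.23 ± 0.2 (adjusted p = 0.0012). Ccl3 stood at -1.33 ± 0.3 (adjusted p = 0.0108), which ended without number 1 (0.139) or 3 (0.106) and in CPM (0.0542). Among 16 anti-inflammatory feedback genes 3 were more than additive (18.8%) and 0 less. With the block 9 and 2 passed, against 2049 and 2486 of all 15610 tested genes. Bcl3, an atypical I-kB protein, had 0.77 ± 0.15 (adjusted p = 0.00444). Il1rn, the interleukin-1 receptor antagonist, had 0.43 ± 0.1 (adjusted p = 0.0158) and lost its call without number 1, 2 or 3 (0.0659 to 0.0862). Thrombin raised it with platelets by 0.82 (adjusted p = 2.08e-06) and without them by 0.39 (adjusted p = 0.0422).

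Genes that cAMP is known to induce were the list with the highest share of members more than additive. The lists were chosen with earlier results of these data known, and this one holds Pde4d, picked out beforehand for this contrast. The share is therefore a description and no independent support. Of 15 tested, 9 were more than additive (60%, against 4.56% of all tested genes), 1 was less and 5 did not pass, and the list median was 0.96. With the GC offset the counts were 7 and 1, against 378 and 521 of all 15610 tested genes. With the block they were 11 and 1, against 2049 and 2486, and in CPM 9 and 0, against 737 and 644. Pde4d, a phosphodiesterase that breaks down cAMP (chromosome 13, 108790711 to 110092503), was at 14.5, 12.2, 14.9 and 17.9 CPM with activated platelets, 4.66, 3.79, 4.29 and 5.03 CPM with resting platelets, 4.17, 3.58, 3.78 and 4.34 CPM with thrombin, and 3.97, 3.82, 4.98 and 4.28 CPM with vehicle. The groups other than activated platelets overlapped one another, and the activated platelet level was 3.6-fold above the expectation of 4.14 CPM. The interaction was 1.85 ± 0.18 (adjusted p = 2.03e-05). The thrombin effect was 1.74 ± 0.12 with platelets (adjusted p = 1.94e-07) and -0.1 ± 0.13 without them (adjusted p = 0.844).

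Further members of that list are transcription factors and regulators. Crem, a cAMP-responsive repressor and activator, averaged 22.3 ± 2.75 CPM with activated platelets, 10.3 ± 0.497 CPM with resting platelets, 9.74 ± 0.705 CPM with thrombin and 9.86 ± 1.59 CPM with vehicle, an interaction of 1.13 ± 0.15 (adjusted p = 0.000298). Nr4a2, an orphan nuclear receptor, averaged 5.71 ± 0.701 CPM with activated platelets, 2.52 ± 0.314 CPM with resting platelets, 2.06 ± 0.188 CPM with thrombin and 2.23 ± 0.172 CPM with vehicle, an interaction of 1.29 ± 0.17 (adjusted p = 0.000348). For both genes, resting platelets, thrombin and vehicle lay close together, with activated platelets above them. Fosl2, an AP-1 subunit, had 1.05 ± 0.16 (adjusted p = 0.000783), Nr4a1 0.91 ± 0.25 (adjusted p = 0.028; 0.0849 with the GC offset and 0.0563 in CPM) and the clock gene Per1 0.46 ± 0.12 (adjusted p = 0.0248; 0.161 with the GC offset). Vegfa and Ptgs2 complete the list with Pde4d and Pde4b. Atf3, a stress-induced transcription factor, was the member less than additive, at -1.39 ± 0.36 (adjusted p = 0.0221). Its call ended without number 1 (0.216), 3 (0.118) or 4 (0.0756), without activated platelets 1 (0.0517) or vehicle 4 (0.0518), and in CPM (0.167), while the block gave 5.66e-11.

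Genes of cAMP breakdown, which ends the cAMP signal, formed another list. It shares Pde4d and Pde4b with the list of cAMP-induced genes, so the counts of these lists are not separate. Of 18 genes of cAMP breakdown and cAMP kinase signalling, 5 were more than additive (27.8%, against 4.56% of all tested genes). Of the others 1 was less (5.56%, against 5.37%) and 12 did not pass, and the list median was 0.1. Besides Pde4d, the members more than additive were Pde3b, Pde4b and Pde8a, further phosphodiesterase genes, and Prkar1a, a regulatory subunit of the cAMP-dependent kinase. Pde3b averaged 239 ± 25.4 CPM with activated platelets, 115 ± 9.02 CPM with resting platelets, 91.9 ± 12.8 CPM with thrombin and 88 ± 25.9 CPM with vehicle, an interaction of 0.99 ± 0.22 (adjusted p = 0.0108). Pde4b stood at 0.96 ± 0.21 (adjusted p = 0.00994), Pde8a at 0.47 ± 0.08 (adjusted p = 0.00139) and Prkar1a at 0.26 ± 0.05 (adjusted p = 0.0034). With the block 6 members were more than additive and 2 less, against 2049 and 2486 of all 15610 tested genes. With block and GC offset together 6 were more and 5 less, against 1407 and 2158. In the fit reported first, Adcy9, an adenylate cyclase that makes cAMP, was the member less than additive. It averaged 23.7 ± 3.05 CPM with activated platelets, 36.5 ± 2.78 CPM with resting platelets, 42.7 ± 4.83 CPM with thrombin and 44.6 ± 4.71 CPM with vehicle. The interaction was -0.56 ± 0.14 (adjusted p = 0.019; 0.0966 in CPM, 0.203 without number 1, 0.13 without number 3 and 9.92e-07 with the block).

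Promoters were searched for motifs of the factors that cAMP and growth signals act through, in RefSeq windows of the GRCm38.p6 build from 250 bases before to 50 after a gene's start. The full cAMP response element TGACGTCA, searched on both strands, was in the window of 4.28% of the 537 genes more than additive that had one, of 2.65% of the 642 less than additive, and of 3.37% of the 11162 tested genes with a window. Of the 9 cAMP-induced members more than additive, 8 had a window and 0 of these held the full element. The AP-1 motif TGANTCA was in 8.19%, 6.7% and 6.58% in the same order, and the serum response CArG box in 1.12%, 1.09% and 1.64%. These shares describe the windows, with no test, and say nothing of binding or of elements outside them.

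The genes with the largest positive values had varied roles. Tgm2, a transglutaminase that cross-links proteins (chromosome 2, 157958325 to 157988312), was at 625, 508, 591 and 808 CPM with activated platelets, 105, 135, 107 and 159 CPM with resting platelets, 58.1, 48.4, 62.8 and 77.9 CPM with thrombin, and 54, 45.9, 78.5 and 72.3 CPM with vehicle. Both platelet groups lay above the groups without platelets, which overlapped. Activated platelets were 5.07-fold above the expectation of 125 CPM, an interaction of 2.34 ± 0.27 (adjusted p = 0.000104). Vegfa, a growth factor for blood vessels, was at 301, 218, 289 and 332 CPM with activated platelets, 70.4, 75.8, 69.9 and 91.4 CPM with resting platelets, 45.1, 41.1, 43.2 and 49 CPM with thrombin, and 43.2, 30.2, 42.4 and 41.9 CPM with vehicle. Every library with platelets lay above every library without them, and activated above resting platelets. Its interaction was 1.71 ± 0.18 (adjusted p = 5.41e-05), and activated platelets lay 3.28-fold above an expectation of 87 CPM.

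Nt5e, the ectoenzyme CD73 that makes adenosine from AMP, averaged 11.9 ± 2.23 CPM with activated platelets, 2.18 ± 0.686 CPM with resting platelets, 1.91 ± 0.95 CPM with thrombin and 1.7 ± 0.618 CPM with vehicle, an interaction of 2.29 ± 0.47 (adjusted p = 0.00592; 0.0688 without number 3). Adora2b, an adenosine receptor that raises cAMP, stood at 0.78 ± 0.22 (adjusted p = 0.0367), but its call ended without any of 10 single libraries (adjusted p up to 0.0778), without each number (0.0516 to 0.188) and with the GC offset (0.0618). Cytip, which binds cytohesins and regulates adhesion, had 1.81 ± 0.28 (adjusted p = 0.00104). Carmil1, a regulator of actin capping protein, had 1.74 ± 0.14 (adjusted p = 5.77e-06), and Spsb1, an adaptor of a ubiquitin ligase, 1.65 ± 0.15 (adjusted p = 1.01e-05). For Carmil1 the levels were 68.3 ± 3.33 CPM with activated platelets, 20.6 ± 2.12 CPM with resting platelets, 11.6 ± 1.76 CPM with thrombin and 11.7 ± 1.03 CPM with vehicle, so that resting platelets also lay above vehicle (0.81, adjusted p = 0.000332). Hif1a, the oxygen-regulated subunit of the hypoxia factor, had 0.85 ± 0.08 (adjusted p = 2.9e-05).

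**Figure D3:**
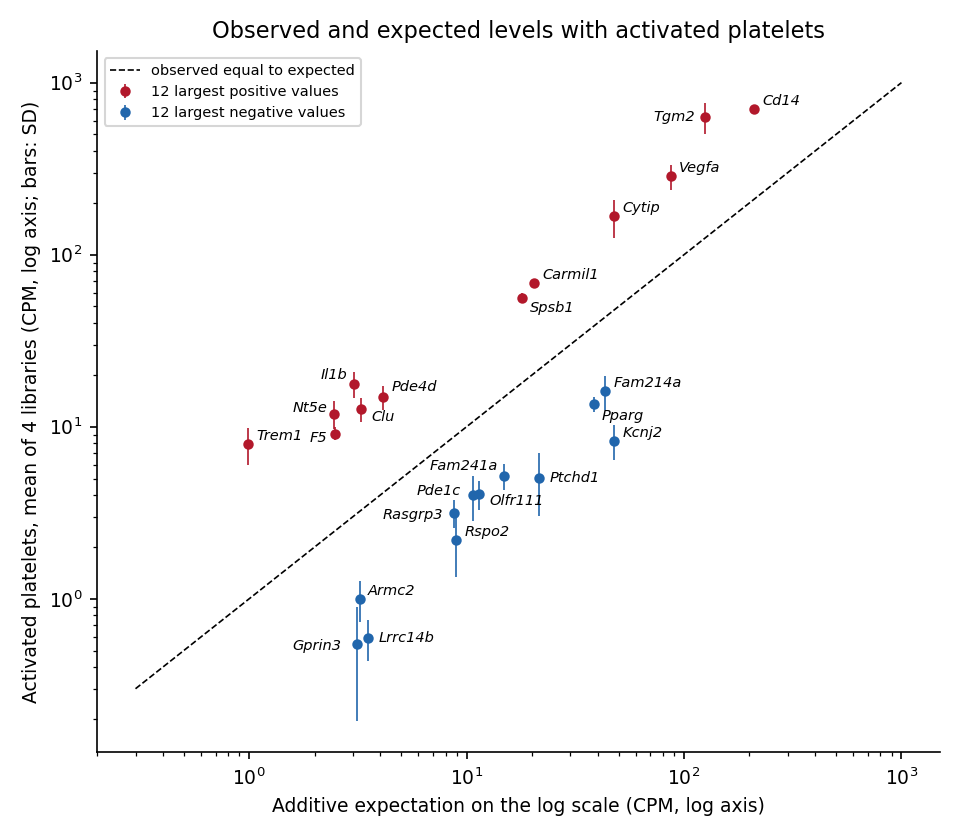
Mean level with activated platelets (CPM, log axis, bars: SD of 4 libraries) against the additive expectation (CPM, log axis) for the 12 largest positive (red) and 12 largest negative (blue) values among genes named by rule. Red points lie above the dashed line of equal levels and blue points below it, from Trem1, with an expectation of 0.991 CPM, to Cd14, with one of 209 CPM.

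Among the 12 largest values of each sign, the positive ones were less sensitive to the processing than the negative ones. Of the 12 largest positive values, 12 passed in CPM, 12 with the GC offset, 12 with any 1 library left out and 11 with any number left out. Of the 12 largest negative values, 5 passed in CPM, 9 with the GC offset, 9 with any 1 library left out and 4 with any number left out. In CPM with the block, 12 of the positive and 9 of the negative values passed. Over all called genes, the GC offset kept 304 of the 712 more than additive and 431 of the 838 less than additive, and CPM kept 619 and 618.

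At the negative end stood Kcnj2, which encodes an inwardly rectifying potassium channel (chromosome 11, 110956990 to 110967651). It was at 7.88, 11, 7.65 and 6.55 CPM with activated platelets, 45.1, 57.1, 44.6 and 29.9 CPM with resting platelets, 75.9, 109, 64.5 and 52 CPM with thrombin, and 72, 101, 53.4 and 53.1 CPM with vehicle. The activated platelet libraries were below every other library, and the groups with thrombin and vehicle overlapped. The level with activated platelets was 5.76-fold below the expectation of 47.6 CPM, an interaction of -2.53 ± 0.37 (adjusted p = 0.000671). The call did not hold in CPM (adjusted p = 0.14; 0.0161 with the block), where the shortfall averaged -41.3 CPM. Of 17 genes for potassium and other membrane channels, Kcnj2 and Trpm7 were less than additive (11.8%, against 5.37% of all tested genes). Kcna3, a voltage-gated potassium channel, was more than additive (5.88%, against 4.56%), at 1.08 ± 0.14 (adjusted p = 0.000298). Trpm7, an ion channel with a kinase domain, stood at -0.27 ± 0.06 (adjusted p = 0.0124), lost with the GC offset (0.208) and without number 1 (0.205), 2 (0.0682) or 3 (0.052). With the block 2 channel genes were more than additive and 6 less, against 2049 and 2486 of all 15610 tested genes.

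Pparg, the nuclear receptor that governs lipid handling (chromosome 6, 115337840 to 115467365), was at 12, 13.6, 13.5 and 15.3 CPM with activated platelets, 35.8, 38.7, 37.8 and 32.1 CPM with resting platelets, 45.5, 56.2, 49.5 and 45.5 CPM with thrombin, and 42.7, 54.8, 44.5 and 42.8 CPM with vehicle. Activated platelets lay below resting platelets in every library, and resting platelets below both groups without platelets. The level with activated platelets was 2.83-fold below the expectation of 38.4 CPM, with an interaction of -1.5 ± 0.13 (adjusted p = 9.55e-06), which also passed in CPM (adjusted p = 0.00241). Of 18 genes of Pparg and fatty acid handling, 1 was more than additive (5.56%, against 4.56% of all tested genes), 2 less (11.1%, against 5.37%) and 15 did not pass. The list median was -0.18. With the block 3 were more than additive and 10 less, against 2049 and 2486 of all 15610 tested genes. Lipa, the lysosomal acid lipase, averaged 1370 ± 136 CPM with activated platelets, 1970 ± 248 CPM with resting platelets, 2200 ± 206 CPM with thrombin and 2130 ± 183 CPM with vehicle. Its interaction was -0.57 ± 0.14 (adjusted p = 0.0158; 0.0715 with the GC offset, 0.167 without number 1, 0.114 without number 3 and 2.82e-10 with the block). Abca1, the cholesterol exporter, was the member more than additive, at 0.74 ± 0.17 (adjusted p = 0.0115; 0.0734 without number 1).

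The other large negative values were in genes that averaged at most 26.6 CPM with vehicle (Ptchd1), apart from Fam214a. Lrrc14b averaged 0.595 ± 0.161 CPM with activated platelets, 2.66 ± 0.767 CPM with resting platelets, 5.3 ± 0.578 CPM with thrombin and 4.01 ± 0.819 CPM with vehicle, an interaction of -2.56 ± 0.31 (adjusted p = 0.00012). Ptchd1 had -2.11 ± 0.43 (adjusted p = 0.00557) and Fam214a -1.43 ± 0.27 (adjusted p = 0.00379), and both lost the call in CPM (0.167 and 0.141), without number 1 (0.11 and 0.0841) and without number 3 (0.0533 and 0.0549). Olfr111, an olfactory receptor gene, had -1.49 ± 0.23 (adjusted p = 0.00104), Armc2 -1.69 ± 0.32 (adjusted p = 0.0034) and Fam241a -1.53 ± 0.26 (adjusted p = 0.00188), of which Armc2 (0.0834) and Fam241a (0.067) lost the call without number 1. Rasgrp3, an activator of Ras family proteins, had -1.46 ± 0.37 (adjusted p = 0.0216), lost in CPM (0.288) and without number 1 (0.217), 3 (0.0896) or 4 (0.0659). Gprin3 (-2.48, adjusted p = 0.0425), the Wnt pathway agonist gene Rspo2 (-2.01, adjusted p = 0.0495) and Pde1c, a calcium-dependent phosphodiesterase (-1.43, adjusted p = 0.0388), lost the call when 11 (Gprin3), 13 (Rspo2) and 11 (Pde1c) of the 16 libraries were left out singly, and with the GC offset (0.0759, 0.0768 and 0.0817). With the block and all libraries each kept it, Pde1c with an adjusted p of 9.72e-09.

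Of 15 genes of prostaglandin synthesis and receptors tested, Ptgs2 was more than additive (6.67%, against 4.56% of all tested genes), Ptger4 and Hpgds less (13.3%, against 5.37%), and 12 did not pass, with a median of -0.06. With the block 1 was more than additive and 6 less, against 2049 and 2486 of all 15610 tested genes. Hpgds, which makes prostaglandin D2, averaged 128 ± 3.73 CPM with activated platelets, 196 ± 16.3 CPM with resting platelets, 252 ± 12.5 CPM with thrombin and 223 ± 13.7 CPM with vehicle, an interaction of -0.78 ± 0.08 (adjusted p = 4.61e-05). Ptger4, a prostaglandin E2 receptor that raises cAMP, averaged 15.9 ± 2.68 CPM with activated platelets, 29.9 ± 2.67 CPM with resting platelets, 28 ± 1.26 CPM with thrombin and 30.6 ± 1.62 CPM with vehicle, an interaction of -0.79 ± 0.13 (adjusted p = 0.00177). Of 26 receptors for platelet products, 3 were more than additive (Adora2b, S1pr1 and P2ry6, 11.5%), 2 less (P2ry1 and S1pr2, 7.69%) and 21 did not pass, with a median of 0.09, and the block gave 8 and 8. S1pr1, a receptor for sphingosine 1-phosphate, had 0.41 ± 0.1 (adjusted p = 0.0157; 0.00383 with the block), lost without number 1 (0.14), 3 (0.0945) or 4 (0.0595). Its relative S1pr2 had -0.5 ± 0.12 (adjusted p = 0.0164; 1.18e-07 with the block), lost in CPM (0.0899) and without number 1 (0.167) or 3 (0.14). The ADP receptor gene P2ry1 stood at -1.11 ± 0.29 (adjusted p = 0.0247), lost without any of 6 single libraries (up to 0.0553) and in CPM (0.351).

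A reversed thrombin response means that the interaction and both thrombin effects were called and that these effects had opposite signs. The 2 thrombin effects share no library. EdgeR found 6 such genes, of which 5 are described here: Cd14 and Med25, higher with thrombin in the presence of platelets and lower without, and Stam2, Ptgr2 and Ccdc122, the other way round. Med25, a Mediator subunit, was at 55, 53.6, 55.5 and 51.7 CPM with activated platelets, 45.3, 47.7, 51 and 49 CPM with resting platelets, 43.1, 46.1, 45.3 and 43.1 CPM with thrombin, and 57, 53, 49 and 52.2 CPM with vehicle. Activated platelets did not overlap resting platelets, and thrombin did not overlap vehicle. Its thrombin effect was 0.16 ± 0.05 with platelets (adjusted p = 0.0318) and -0.25 ± 0.05 without (adjusted p = 0.0422).

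In the opposite direction, Stam2, an endosomal sorting adaptor, averaged 57.9 ± 2.04 CPM with activated platelets, 62.8 ± 2.5 CPM with resting platelets, 66.9 ± 0.726 CPM with thrombin and 58.1 ± 1.59 CPM with vehicle. Its thrombin effect was -0.12 ± 0.04 with platelets (adjusted p = 0.0367) and 0.2 ± 0.04 without (adjusted p = 0.0366). Ptgr2, a prostaglandin reductase, averaged 59.3 ± 0.937 CPM with activated platelets, 67.3 ± 2.04 CPM with resting platelets, 74.3 ± 3.22 CPM with thrombin and 65 ± 2.06 CPM with vehicle, with effects of -0.18 ± 0.04 (adjusted p = 0.00343) and 0.19 ± 0.04 (adjusted p = 0.0431). Ccdc122 had effects of -0.34 ± 0.08 (adjusted p = 0.0109) and 0.41 ± 0.08 (adjusted p = 0.0489). Except for Cd14 with platelets, every effect of these 5 genes was under 1.5-fold.

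The 6 reversal calls rested on thrombin effects without platelets that lay close to the threshold, with adjusted p of 0.0366 to 0.0489. The count was 0 when any of 12 of the 16 libraries was left out, 1 to 4 when any of the others was, 0 without each replicate number, and 0 with the GC offset. With the replicate block 393 genes were reversed (2.52%), 162 higher with platelets and lower without, and 231 the opposite way, and all 6 were among them. With block and GC offset together 86 were reversed, 57 of them in both fits. Among these 57 was Ninj1, chosen after its values were seen for the smallest adjusted p of its weaker effect. Ninj1, a membrane protein that acts in plasma membrane rupture, averaged 211 ± 25.5 CPM with activated platelets, 146 ± 13 CPM with resting platelets, 128 ± 12.7 CPM with thrombin and 155 ± 13.1 CPM with vehicle. In the blocked fit its thrombin effect was 0.53 with platelets (adjusted p = 1.1e-10) and -0.28 without (adjusted p = 0.000161). Gpr34, a lysophosphatidylserine receptor, had -0.76 with platelets (adjusted p = 6.2e-10) and 0.34 without (adjusted p = 0.000934) in that fit.

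**Figure D4:**
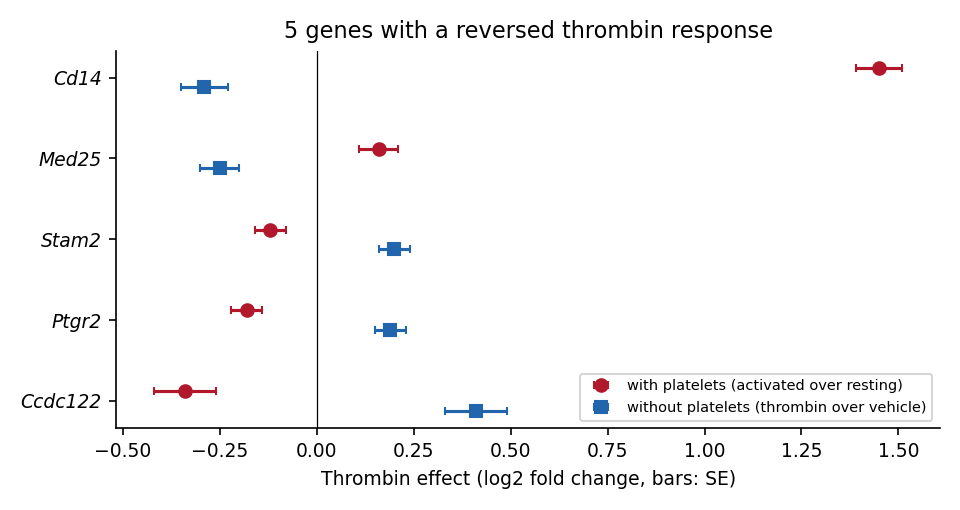
Thrombin effects (log2 fold change, bars: SE) with platelets (circles, activated over resting) and without platelets (squares, thrombin over vehicle) for 5 genes with a reversed thrombin response. The 2 symbols of each gene lie on opposite sides of 0, closest together for Stam2, at -0.12 and 0.2, and farthest apart for Cd14, at 1.45 and -0.29.

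Some genes that thrombin alone had changed were changed by it with platelets too. Of the 45 called for thrombin against vehicle, 17 were called in the same direction for activated against resting platelets. Another 6 were called in the opposite direction and 22 were not called. Over all 15610 tested genes, 2472 (15.8%) were called for activated against resting platelets. The interaction was called in 20 of the 45, against 1550 of all tested genes, in 18 with a sign opposite to the thrombin effect. Thrombin over vehicle is subtracted in the interaction, so these signs are a description. Among these 17 were the zinc handling genes Slc39a10 and Mt1, chosen after their values were seen. Slc39a10, a zinc importer, averaged 170 ± 10.7 CPM with activated platelets, 65.7 ± 6.99 CPM with resting platelets, 191 ± 12.3 CPM with thrombin and 60.1 ± 4.75 CPM with vehicle, thrombin effects of 1.37 with platelets and 1.67 without, and an interaction of -0.3 ± 0.11 (adjusted p = 0.0824; 0.00241 with the block). For the metallothionein gene Mt1 the effects were -1.41 and -1.33, with an interaction of -0.09 ± 0.12 (adjusted p = 0.723). Of 12 zinc genes, 0 were more than additive (against 4.56% of all tested genes), and Slc30a1, Slc39a6 and Slc30a5 were less (25%, against 5.37%). The block gave 2 and 5, against 2049 and 2486 of all 15610 tested genes. The zinc exporter gene Slc30a1 averaged 21 ± 3.91 CPM with activated platelets, 54.6 ± 6.21 CPM with resting platelets, 35.6 ± 8.12 CPM with thrombin and 54.3 ± 6.49 CPM with vehicle, an interaction of -0.77 ± 0.21 (adjusted p = 0.031). That call ended without any of 8 single libraries (up to 0.0719), without numbers 1 (0.203), 3 (0.126) or 4 (0.0682), with the GC offset (0.0698) and in CPM (0.145), while the block gave 1.07e-07.

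The interaction reads equally as a platelet effect that differs with thrombin. Activated platelets called 3960 genes against thrombin (25.4%) and 4031 against vehicle (25.8%), and resting platelets 529 against vehicle (3.39%). Both platelet effects were called with opposite signs in 14 genes with an interaction, and in the 6 named both effects were under 1.5-fold. Dhrsx, an oxidoreductase gene, averaged 34.8 ± 2.89 CPM with activated platelets, 28 ± 0.942 CPM with resting platelets, 29.6 ± 0.593 CPM with thrombin and 34.3 ± 2.37 CPM with vehicle, a platelet effect of 0.23 ± 0.06 with thrombin (adjusted p = 0.00784) and -0.29 ± 0.06 without (adjusted p = 0.0142). H2aj, a histone gene, Map4k2, a kinase, Sars2, a mitochondrial tRNA synthetase, and Rbck1, a subunit of a ubiquitin ligase, went the same way. Tpp2, a peptidase, went the other way, at -0.19 ± 0.04 with thrombin (adjusted p = 0.00146) and 0.18 ± 0.04 without (adjusted p = 0.0232). The count of such genes was 2 with the GC offset, 335 with the block, and 0 to 31 with 1 library left out (0 without vehicle 2, 31 without vehicle 3).

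Sorted by what the single treatments had done, 874 of the 1550 genes were called for activated platelets against vehicle and for neither thrombin nor resting platelets against vehicle, 336 of them higher and 538 lower. A missing call does not show that a single treatment had no effect, and with the block the count was 1612. Resting platelets had been called in the direction of the interaction in 105 genes and against it in 80. The 80 became 13 with the GC offset and 946 with the block, and 12 to 109 with 1 library left out (12 without resting platelets 1, 17 without vehicle 2, 109 without vehicle 3), while the 105 became 746 with the block and 61 to 113 with 1 library left out (61 without resting platelets 1, 66 without vehicle 2, 68 without vehicle 4, 69 without vehicle 1). These sets share the resting platelet and vehicle libraries with the interaction, in which both enter with the opposite sign, so the counts describe the genes and show no agreement or opposition beyond that. Tgm2, Vegfa and Carmil1 belonged to the 105, and Pde4d, Nt5e, Cytip and Kcnj2 to the 874. Kcnj2 was nonetheless lower with resting platelets than with vehicle within each replicate number.

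Immediate early genes, which respond within minutes to many stimuli, had 6 of 23 members more than additive (26.1%), 2 less (8.7%) and a median of 0.19. Over all tested genes the shares were 4.56% and 5.37%, for this list and those below. With the block 9 and 6 passed, against 2049 and 2486 of all 15610 tested genes. Fos, an AP-1 subunit, averaged 228 ± 18.4 CPM with activated platelets, 92.7 ± 15.6 CPM with resting platelets, 56.3 ± 6.64 CPM with thrombin and 54.5 ± 3.13 CPM with vehicle, an interaction of 1.25 ± 0.15 (adjusted p = 0.000108). Klf6, a zinc finger factor, was less than additive at -0.47 ± 0.07 (adjusted p = 0.000671). Of 22 glycolysis and hypoxia genes, 4 were more than additive (Vegfa, Hif1a, Pfkfb3 and Slc16a3, 18.2%) and 2 less (Pdk1 and Bnip3, 9.09%). The list median was 0.12, and the block gave 10 and 5. Pdk1, the kinase that restrains pyruvate entry into mitochondria, averaged 20.5 ± 0.828 CPM with activated platelets, 35.7 ± 2.67 CPM with resting platelets, 41.6 ± 1.08 CPM with thrombin and 41.3 ± 1.16 CPM with vehicle, an interaction of -0.81 ± 0.07 (adjusted p = 7.23e-06). Insulin and Foxo signalling had 1 of 17 more (5.88%) and 2 less (11.8%), and 2 and 7 with the block. Among the 2 was Sesn1, a stress-induced regulator of growth signalling, at -1.14 ± 0.13 (adjusted p = 0.000104).

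Of 20 TGF-beta and BMP response genes 2 were more than additive (10%) and 0 less, but with the block 8 were more and 5 less. For all lists in this paragraph, the shares over all tested genes were 4.56% and 5.37%. With the block 2049 and 2486 of all 15610 tested genes were called. Tgfbi, a TGF-beta-induced matrix protein, averaged 561 ± 65.7 CPM with activated platelets, 280 ± 36.1 CPM with resting platelets, 200 ± 7.82 CPM with thrombin and 213 ± 7.82 CPM with vehicle, an interaction of 1.09 ± 0.12 (adjusted p = 7.92e-05), and the transcriptional co-repressor gene Ski had 0.54 ± 0.06 (adjusted p = 0.000104). Of 19 macrophage identity genes 3 were more than additive (15.8%), Cd14 and Cebpb among them, and 0 less, but with the block 5 were more and 4 less. Antigen presentation had 1 of 16 more (6.25%), and 7 more and 1 less with the block. The member called was the co-stimulatory gene Cd86 at 0.99 ± 0.24 (adjusted p = 0.0173; 0.202 without number 1, 0.113 without number 3 and 1.38e-08 with the block). NRF2 antioxidant genes had 1 of 16 more (6.25%), and 6 more and 2 less with the block. That gene was the cystine transporter gene Slc7a11 at 1.21 ± 0.3 (adjusted p = 0.0177; 0.137 without number 1, 0.124 without number 3 and 2.22e-06 with the block). Of 13 protease-activated receptor and thrombin handling genes 2 were more than additive (15.4%), F2rl2 and the urokinase receptor gene Plaur, and 0 less. With the block 2 were more and 3 less. Plaur stood at 0.55 ± 0.16 (adjusted p = 0.0358) and lost its call when any of 8 libraries was left out (up to 0.0789), and F2rl2, which platelets express, averaged at most 0.974 CPM in any group. F2r, which encodes the thrombin receptor PAR1, was not called, at 0.3 ± 0.31 (adjusted p = 0.611), and averaged 4.44 ± 1.07 CPM with activated platelets, 4.22 ± 1.39 CPM with resting platelets, 3.2 ± 0.45 CPM with thrombin and 3.75 ± 0.762 CPM with vehicle. Sterol synthesis genes had 0 of 20 more and 2 less (Sc5d and Hmgcs1, 10%). These counts became 0 and 8 under the block, and 0 and 0 under the GC offset, which called 378 and 521 of all tested genes. Interferon-stimulated genes had 1 of 24 more (Irf7, 4.17%, not called when any of 11 libraries was left out) and 1 less (Gbp9, 4.17%). Their median was 0.34, and 12 heat shock genes had 0 calls by edgeR and 2 more and 3 less with the block.

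**Figure D5:**
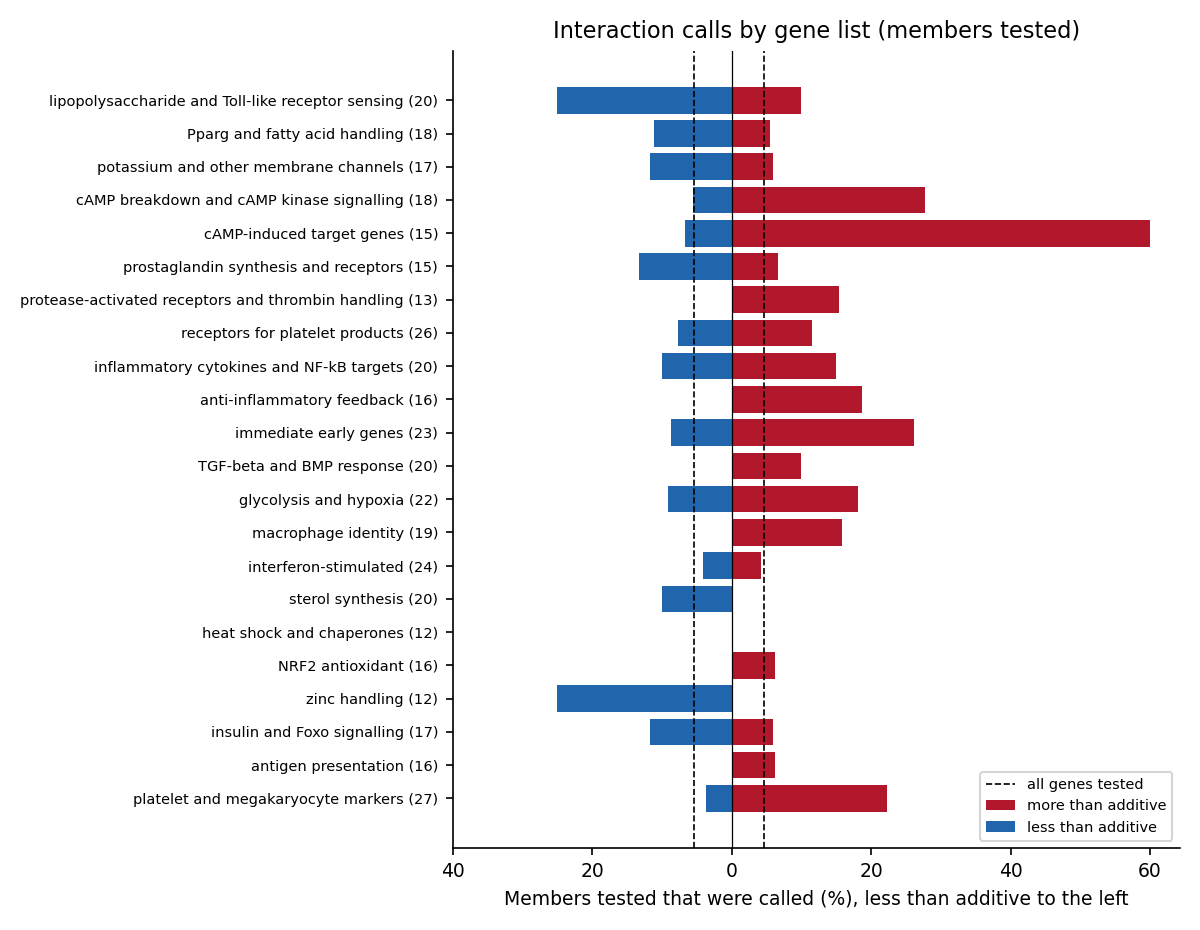
Share of the tested members of each gene list (in brackets: members tested) that edgeR called more than additive (red, to the right) or less (blue, to the left), in percent, with dashed lines at the shares over all tested genes, 4.56% and 5.37%. The cAMP-induced target genes reach 60% on the right. The lists were chosen with earlier results of these data known.

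Transcripts of platelet marker genes moved with the contrast. Without Pf4, Plek, Sh3bgrl3 and Thbs1, which macrophages without platelets also held, platelet and megakaryocyte markers took 0.0464% to 0.0536% of counts with activated platelets, 0.0182% to 0.0285% with resting platelets, 0.0159% to 0.023% with thrombin and 0.0149% to 0.0229% with vehicle. The trimmed list still held genes abundant without platelets, so these shares are not platelet RNA alone. Myl9, for example, averaged 126 CPM with activated platelets, 131 CPM with resting platelets, 119 CPM with thrombin and 117 CPM with vehicle. Ctla2a, also present without platelets, averaged 147, 39.5, 24 and 22.2 CPM in the same order, and Gng11 40.9, 12, 7.19 and 6.63 CPM. Both therefore add to the rise of the share, and whether platelets or macrophages held their added transcripts was not tested. Of 27 markers tested, edgeR called 6 more than additive (22.2%, against 4.56% of all tested genes) and 1 less (3.7%, against 5.37%). In CPM 17 and 1 passed, against 737 and 644 of all 15610 tested genes. With the block 12 and 1 passed, against 2049 and 2486. A set of 12 platelet and haemoglobin transcripts stood under 0.3 CPM in both groups without platelets and at 1 CPM or more with activated platelets. Chosen for being high with activated platelets, they were 4.22 to 10.2 times as high there as with resting platelets, and the haemoglobin transcripts Hbb-bs and Hbb-bt, under that limit, 2.22 and 3.66 times. EdgeR called 0 of the 12 on the log scale. In CPM all 12 passed, which their choice as high with activated platelets and near 0 without platelets largely fixed in advance. Gp9, a subunit of the platelet receptor for von Willebrand factor, averaged 7.94 ± 2.11 CPM with activated platelets and 1.07 ± 0.577 CPM with resting platelets, with 0 counts in the groups without platelets. For a transcript that only the platelets bring, thrombin over vehicle has no defined fold, and the log scale interaction says little.

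The ratio of activated to resting platelets was large too for several of the 12 largest positive values. Clu, an extracellular chaperone, was 4.25 times as high with activated as with resting platelets and F5, coagulation factor V, 3.98 times, and both are known from platelets and megakaryocytes. Clu had an interaction of 1.97 ± 0.32 (adjusted p = 0.00144) and F5 of 1.88 ± 0.27 (adjusted p = 0.000619). Nt5e was 5.47 times, Trem1 9.85 times, Tgm2 5 times and Il1b 4.13 times as high. Whether platelets or macrophages held these transcripts was not tested. Erythroid markers took 0.0019% to 0.00236% of counts with activated platelets, 0.00097% to 0.00122% with resting platelets, 0.000782% to 0.000989% with thrombin and 0.000847% to 0.00105% with vehicle. Nearly all of the share without platelets was Bpgm, at 10.7 CPM with activated platelets, 8.81 with resting platelets, 8.92 with thrombin and 9.6 with vehicle. The haemoglobin transcript Hba-a1 averaged 6.03 CPM with activated platelets, 1.12 with resting platelets, 0 with thrombin and 0.00892 with vehicle. Ahsp and Slc4a1 had 0 counts in every library, and edgeR called 0 of 3 tested members. In CPM 2 were more than additive, against 737 of all 15610 tested genes. Stromal markers took 0.623% to 1.34% with activated platelets, 0.733% to 1.46% with resting platelets, 0.698% to 1.38% with thrombin and 0.684% to 1.39% with vehicle. Of 12 stromal, 10 neutrophil, 4 lymphocyte and 4 mast cell and basophil markers tested 0 were called by edgeR, and of 4 dendritic cell markers Batf3, at 0.377 to 3.04 CPM, was less than additive (adjusted p = 0.0184), lost in CPM (0.319) and without number 1 (0.11), 3 (0.0936) or 4 (0.0999). With the block, 1 stromal marker was more than additive and 6 less, 1 neutrophil marker more and 1 less, 1 lymphocyte marker less and 2 dendritic cell markers less. Over all 15610 tested genes the block called 2049 and 2486.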

How the data were processed

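The authors deposited estimated counts per gene in 1 table for all 16 libraries, made from stranded polyA RNA-seq libraries. The submitters' processing notes name cutadapt 2.5, STAR 2.7.2b, featureCounts 1.6.4 of the Subread package and the builds GRCm39 and mm10, without roles. How strand and multi-mapping reads were set is not given in the sources used here. Of the values above 0, 25.5% were not whole, although whole counts had been assumed, and they were rounded, which changed 0.00734% of all counts.

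Genes were kept by edgeR's filterByExpr (15610 of 46320), scaled by TMM and fitted with edgeR 4.0.16 (limma 3.58.1, R 4.3.3) by the robust quasi-likelihood method, with 4 group means and no block. The interaction and 5 pairwise contrasts were taken from that fit, each with Benjamini-Hochberg adjustment over all tested genes and a threshold of 0.05. An SE is the log2 value divided by the root of its F statistic. CPM values use TMM library sizes, and means are given ± SD with 4 libraries per group. Totals of 22.6 to 30.6 M counts set the counting precision. The scripts were tested on simulated data with no deviation shared by replicate number and no GC trend in the interaction. That test therefore does not cover either.

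Genes were named by rule: the 12 largest positive and 12 largest negative interactions among called genes whose highest group mean was 5 CPM or more and 1 sign within all 4 replicate numbers, without predicted models and platelet or erythroid markers, then Cd14, Pparg, Kcnj2 and Pde4d, up to 12 genes with a reversed thrombin response, up to 6 with a reversed platelet response, and up to 2 genes per list and direction. Other genes were chosen after their values were seen. Members, lists and tests were chosen with earlier results of these data known.

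Replicate numbers come from the labels, which do not say that a number marks a shared animal or day. Deviations from the group means correlated by 0.29 to 0.617 in all 24 same-number pairs and by -0.436 to 0.253 in other pairs, and each of the 16 was closest to the libraries of its own number, so the numbers were taken to pair the libraries. Within groups, no 2 libraries were alike within counting noise (chi-square per degree of freedom 8.65 to 36.8 in 24 pairs).

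Alternatives were the block, DESeq2 1.42.0, limma-voom, RLE scaling, no filter, limma on CPM without a log (each gene divided by its mean), an offset for transcript GC content (GENCODE vM21 on GRCm38, a value for 94.7% of tested genes, 14776), and leaving out each library and each number. Gene coordinates are the file's own, on GRCm39. Results for some genes are not reported here.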

Additional observations from a re-analysis of the deposited data

Results flagged for a closer look

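In 12 of 328 groups of 4 libraries (82 named genes in 4 groups) 1 library stood far from the other 3 by a gap test that chance passes in about 1 of 20 groups. Vegfa was at 30.2 CPM in vehicle library 2, against 41.9 to 43.2 CPM in the others, and Pparg at 54.8 CPM in the same library, against 42.7 to 44.5 CPM. Plaur (46.6 CPM, others 35.9 to 37.4 CPM) and Fam214a (87.2 CPM, others 53.7 to 56.7 CPM) were also high in vehicle library 2. Vehicle library 1 was low for Fos (49.8 CPM, others 55.7 to 56.4 CPM) and Adora2b (2.47 CPM, others 2.75 to 2.78 CPM), and vehicle library 3 high for Pde8a (53.1 CPM, others 44.8 to 46 CPM). Activated platelet library 2 was high for Gng11 (48.8 CPM, others 37.9 to 38.7 CPM) and Plek (421 CPM, others 336 to 350 CPM). Activated platelet library 4 was low for Il1rn (56.5 CPM, others 66.2 to 68 CPM), and library 1 of that group for Pde1c (2.27 CPM, others 4.49 to 4.78 CPM). Tlr1 was high in resting platelet library 3 (33.5 CPM, others 25.1 to 26.4 CPM).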

How the results depend on the processing

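With 4 libraries per group and a threshold close to many genes, the counts moved with the model, while no named gene changed sign. The counts below run in the order more than additive, less than additive, reversed thrombin response, reversed platelet response, called only for the combination, resting platelet response carried further, and resting platelet response opposed, and were 712, 838, 6, 14, 874, 105 and 80 as reported. The replicate block, which uses the pairing of the libraries, gave 2049, 2486, 393, 335, 1612, 746 and 946, and kept the call of all 82 named genes. The GC offset gave 378, 521, 0, 2, 642, 102 and 13, and 1407, 2158, 86, 147, 1721, 824 and 393 with the block. The CPM scale gave 737, 644, 2, 7, 794, 56 and 36, and 1779, 1980, 76, 139, 1688, 417 and 525 with the block. DESeq2 gave 874, 999, 26, 49, 910, 174 and 181. Without the filter the counts were 564, 603, 2, 6, 683, 76 and 27. RLE scaling gave 721 and 814, and limma-voom 711 and 839. Leaving out single libraries or whole numbers gave 134 to 782, 130 to 914, 0 to 4, 0 to 31, 215 to 898, 22 to 113 and 0 to 109, lowest for the first pair without number 1. Leaving out a library lowered some counts and raised others, and the cause of the shifts was not tested. Of the 82 named genes, 67 kept the call with the GC offset, 67 on the CPM scale, 80 with DESeq2 and 80 with limma-voom. The 82 named genes lost 37 calls without number 1, 29 without number 3, 14 without number 4 and 8 without number 2.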
